A study of Sus scrofa with 8 samples.

Results

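A set of 10 genes of the pancreatic acinar cell was chosen by name, and 7 of them were found among the 6765 genes that the array's annotation names by a single symbol. CPA1, CPB1, PRSS2, AMY2, CLPS, PLA2G1B and GP2 were read by 10 probe sets, of 24123 in the table, and all 10 probe sets passed the filter on low intensity. PNLIP, CEL and SPINK1 were not analysed here. The arrays held RNA of islets from male Duroc/Large white cross neonatal pigs, with 4 arrays labelled 3-day-old and 4 labelled 7-day-old, 1 pig per array and no treatment that differed between the groups. Pancreas was chopped, digested with collagenase, filtered and cultured for 7 days in a supplemented Ham's F10 medium, and no density gradient is described for these islets, so tissue other than islets could stay in the preparation. Islet RNA was plainly present, since the hormone genes INS, GCG and SST had intensities of 19881 or more in every array. The study compared islets of these ages to ask how donor age bears on their quality as grafts.

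Acinar cells make up most of the exocrine pancreas. They store digestive enzymes and inactive precursors of enzymes in zymogen granules and release them into the ducts when food arrives, whereas islets release hormones into the blood. A partly purified islet preparation commonly carries some acinar tissue, which dies back in culture, and acinar transcripts are therefore a usual readout of exocrine carry-over. In bulk RNA such as this, fewer acinar cells and less acinar RNA per cell cannot be told apart.

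The arrays had been scaled to a common mean, with medians of 171.6 to 178.5 intensity units and 20th percentiles of 26.38 to 31.34, and with 4 arrays per label precision is limited by their number. The first principal component separated the labels among the probe sets that belong to no acinar list and held 26.2% of the variance. On the second component, with 14.9%, replicates 3 and 4 of the 7-day-old label were far apart, at -68.4 and 39.6, outside the -24.7 to 17.9 of the other 6 arrays. Results that rest on either array are given with and without it. Directions follow the deposited labels. The study names a direction for CPB1 only among the members, and for NEUROD1, PCSK2, DCN, PECAM1 and CDH5 among the other genes named here. For each of these the deposited labels give the opposite direction, and the sources at hand do not settle whose labels are exchanged.

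The acinar genes did not move as a block between the labels. CPB1 alone passed the test, at a lower level in arrays labelled 7-day-old, and in PRSS2 and 2 of the 3 AMY2 probe sets the labels lay apart without passing it. From pig to pig, PRSS2, CLPS and PLA2G1B were high in the same arrays and low in the same arrays within each label, and 7-day-old replicate 4 was the lowest.

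**Figure D1:**
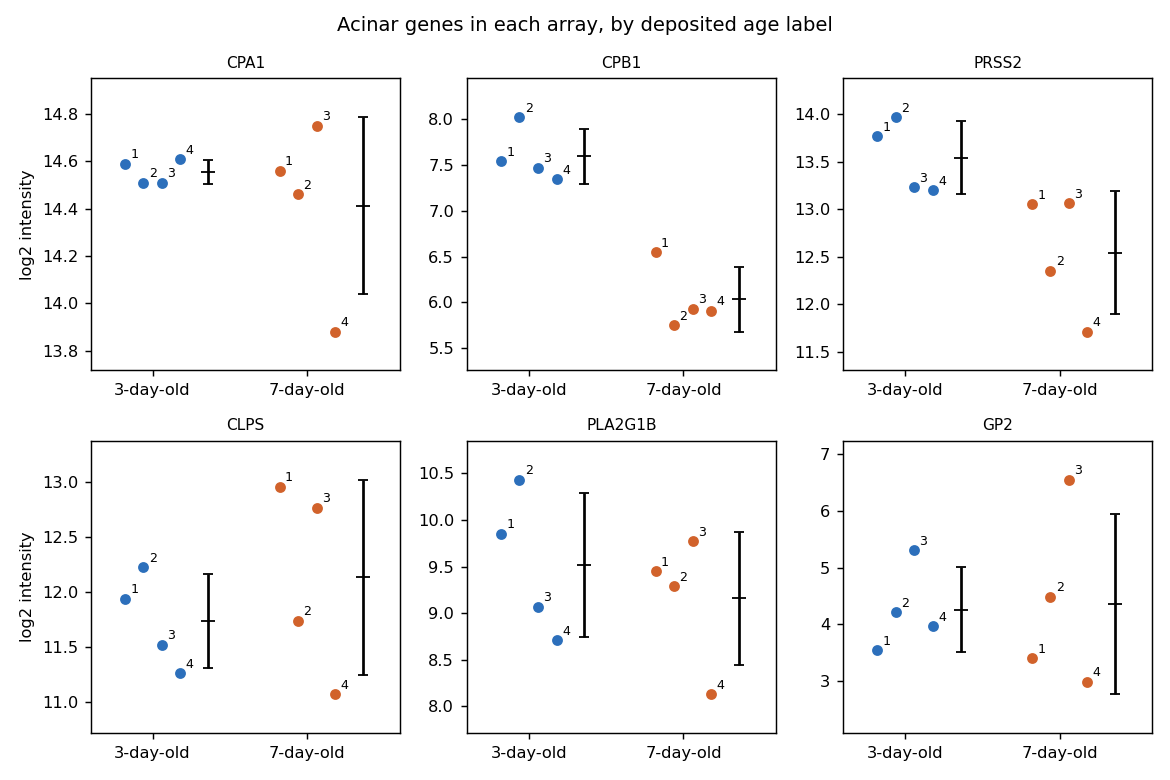
The log2 intensity (vertical axis, each panel with its own scale) of 6 acinar genes in each array, by deposited age label and numbered by replicate, and a bar beside the points for the mean and SD of 4 arrays. CPB1 and PRSS2 are lower in every array labelled 7-day-old than in any labelled 3-day-old and GP2, shown by its first probe set, is near the lower end of the scale.

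Among the proteases, CPB1, CPA1 and PRSS2 were measured. CPB1 encodes pancreatic carboxypeptidase B, which removes basic residues from the ends of peptides. Its probe set had intensities of 186, 260, 178 and 162 in 3-day-old replicates 1 to 4 and of 93.6, 53.8, 60.9 and 60.2 in 7-day-old replicates 1 to 4. The labels did not overlap, and 7-day-old replicate 1 was the highest of its label. CPB1 averaged 197 ± 43.3 (SD, n = 4) under the 3-day-old label against 67.1 ± 17.9 (SD, n = 4) under the 7-day-old label. The level was 2.95-fold lower in the latter (log2 difference -1.56, standard error 0.215, limma adjusted p = 0.00787). It was the only call among the 10 member probe sets, where 10.7% of all tested probe sets were called and 5.47% were called in this direction. The call was not kept without both 7-day-old replicates 3 and 4 (log2 difference -1.45, limma adjusted p = 0.0695).

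PRSS2 encodes a trypsinogen, the precursor of trypsin, which activates the other pancreatic precursors in the gut. Its probe set had intensities of 13962, 16052, 9603 and 9412 in 3-day-old replicates 1 to 4 and of 8495, 5216, 8548 and 3350 in 7-day-old replicates 1 to 4. All 4 arrays labelled 7-day-old lay below the lowest labelled 3-day-old. The log2 difference was -1.0 (95% interval -1.79 to -0.20, limma adjusted p = 0.106), so the unadjusted interval excluded 0 and the adjusted test was not passed. Trypsinogen genes form a family of similar copies, and which copies the probe set reads was not examined.

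CPA1 encodes carboxypeptidase A1, which cuts aromatic and aliphatic residues from the ends of peptides. Its probe set had intensities of 24679, 23334, 23276 and 25068 in 3-day-old replicates 1 to 4, an SD of 920, and of 24184, 22495, 27638 and 15034 in 7-day-old replicates 1 to 4, an SD of 5319. The labels overlapped, and both the highest and the lowest array were labelled 7-day-old. The log2 difference was -0.14 (95% interval -0.57 to 0.28, limma adjusted p = 0.663), and 0.04 without 7-day-old replicate 4. These values sit close to the top of the scale, as the brightest probe set of each array had an intensity of 30895 to 41079. Within labels the log2 intensity of CPA1 followed that array maximum (r = 0.83 over 8 arrays, a description), and the part of the scale's upper end in the CPA1 values was not tested.

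AMY2 encodes pancreatic alpha-amylase, which cuts starch, and its 3 probe sets did not tell the same story. In 2 of them the arrays labelled 7-day-old were lower, and in the third they were higher. The first AMY2 probe set had intensities of 2431, 2783, 1951 and 1546 in 3-day-old replicates 1 to 4 and of 1155, 1115, 1582 and 966 in 7-day-old replicates 1 to 4. The labels overlapped by 1 array each, since 3-day-old replicate 4 was under 7-day-old replicate 3. The log2 difference was -0.84 (95% interval -1.36 to -0.33, limma adjusted p = 0.0524). This value lay so near the threshold that 7 of 18 alternative settings placed it below 0.05.

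The second had intensities of 3013, 3203, 2027 and 1682 in 3-day-old replicates 1 to 4 and of 1575, 1248, 1564 and 1174 in 7-day-old replicates 1 to 4. The labels did not overlap, and the log2 difference was -0.80 (limma adjusted p = 0.0693). The third, annotated to the same gene, had intensities of 7529, 8245, 6169 and 4897 in 3-day-old replicates 1 to 4 and of 10156, 9173, 8248 and 10269 in 7-day-old replicates 1 to 4. Here all arrays labelled 7-day-old were above the highest labelled 3-day-old, by a margin of only a few units between 3-day-old replicate 2 and replicate 3 of the 7-day-old label. The log2 difference was 0.52 (95% interval 0.11 to 0.93, limma adjusted p = 0.103).

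The disagreement between the AMY2 probe sets was itself compared within arrays, a comparison chosen after their values were seen. The log2 difference between the third and the first was nearly constant in arrays labelled 3-day-old, from 1.57 to 1.66, and lay between 2.38 and 3.41 in arrays labelled 7-day-old. The means were 1.36 apart, and 1.32 apart for the difference between the third and the second. No test is given, because the probe sets were already known to lie on opposite sides. Amylase genes occur in similar copies, and neither the copies nor the transcript ends that these probe sets read were examined, so no single direction is given for AMY2.

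**Figure D2:**
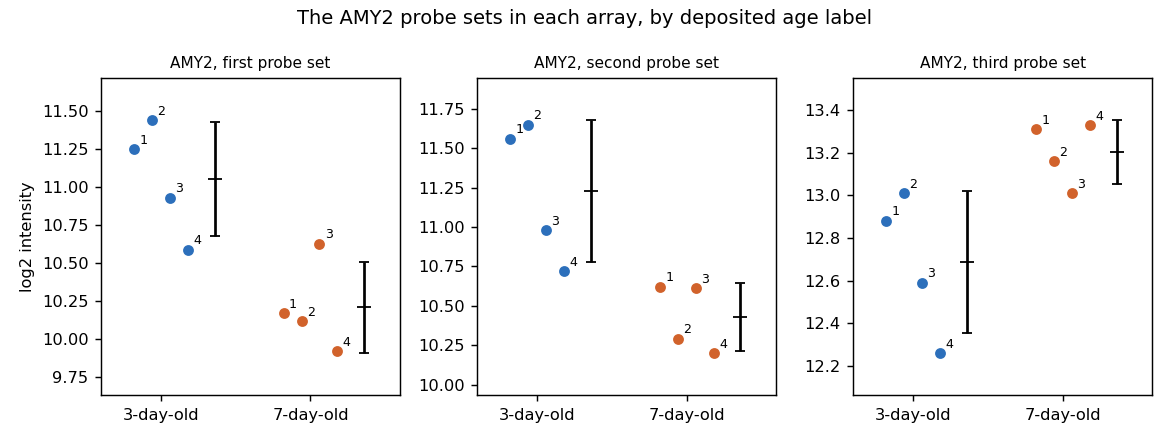
The log2 intensity (vertical axis, each panel with its own scale) of the 3 probe sets annotated to AMY2 in each array, by deposited age label and numbered by replicate, and a bar for the mean and SD of 4 arrays. The first and second probe sets are lower on average in arrays labelled 7-day-old and the third is higher, while replicates 1 to 4 of the 3-day-old label keep the same order in all panels.

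Both CLPS and PLA2G1B act on dietary fat. CLPS encodes colipase, the cofactor that lets pancreatic lipase work in the presence of bile salts. Its probe set had intensities of 3936, 4796, 2931 and 2459 in 3-day-old replicates 1 to 4 and of 7985, 3409, 6970 and 2149 in 7-day-old replicates 1 to 4. The arrays labelled 7-day-old fell on both sides of those labelled 3-day-old, with replicates 1 and 3 above all of them and replicate 4 below all of them. The log2 difference was 0.40 (95% interval -0.64 to 1.43, limma adjusted p = 0.616), and it ranged from 0.12 without 7-day-old replicate 1 to 0.75 without 7-day-old replicate 4.

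PLA2G1B encodes the pancreatic secretory phospholipase A2, which hydrolyses phospholipids of the diet. Its probe set had intensities of 923, 1382, 537 and 420 in 3-day-old replicates 1 to 4 and of 701, 624, 875 and 279 in 7-day-old replicates 1 to 4. The labels overlapped, and the highest array was 4.95 times the lowest. The log2 difference was -0.36 (95% interval -1.46 to 0.75, limma adjusted p = 0.676), and -0.01 without 7-day-old replicate 4.

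GP2, the major glycoprotein of the zymogen granule membrane, was at or near the floor of the measurement. Its first probe set was at or above the 20th percentile in 2 of 8 arrays and its second in 1 of 8. The first had intensities of 11.6 to 39.6 in arrays labelled 3-day-old and of 7.96 to 93.8 in arrays labelled 7-day-old, the highest being 7-day-old replicate 3, and the second ran from 7.13 to 34.7 over all arrays. Neither passed the test (log2 differences of 0.10 and 0.30, limma adjusted p = 0.949 and 0.729), with 95% intervals of -1.73 to 1.93 and -0.81 to 1.42 that leave both directions possible.

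Of the 10 member probe sets, 1 was called lower, 0 were called higher and 9 were not called, where 10.7% of all tested probe sets were called. The sign was negative in 6 and positive in 4. The median log2 difference was -0.25, against 0.00 over all 21574 tested probe sets. The labels did not overlap in 4 of the 10 (3 lower and 1 higher), where 21.2% of all tested probe sets showed no overlap.

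Members that differed in direction between the labels could still be compared within an array. For all 21 pairs of the 7 genes, each read by its brightest probe set, the within-array log2 difference was compared between the labels, a comparison chosen after the values were seen. The pair PRSS2 and CLPS stood 1.71 to 1.94 apart in every array labelled 3-day-old and 0.09 to 0.64 apart in every array labelled 7-day-old. The means of that difference were -1.40 apart on the log2 scale (exact permutation test, two-sided, p = 0.0286). After Benjamini-Hochberg adjustment over 21 pairs this p was 0.1. The unadjusted p is the smallest that the test can give with this number of arrays, so not passing the adjusted test decides nothing here. In 6 of the 21 pairs the labels did not overlap in this way, each with that smallest p and an adjusted p of 0.1. That 0 pairs had an adjusted p under 0.05 is likewise no evidence against a difference, since these 6 could have no smaller p. All 6 held CPB1 or PRSS2, whose labels lay apart when each gene was read alone. The share among pairs of all tested probe sets was not computed, so the count is not read as a result. For a pair such as PRSS2 and AMY2, each without overlap in the opposite direction, this follows from the genes' own values.

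In arrays labelled 3-day-old most member probe sets had the arrays in the same order. There, 7 of the 10 probe sets (CPB1, PRSS2, all 3 of AMY2, CLPS and PLA2G1B) had replicate 2 highest, then replicate 1, replicate 3 and replicate 4, an order found in 4.51% of all tested probe sets. CPA1 and both probe sets of GP2 had other orders. In arrays labelled 7-day-old the orders were more mixed, the commonest being found in 4 of 10, and replicate 4 was the lowest array in 7 of 10 (CPA1, PRSS2, 2 of AMY2, CLPS, PLA2G1B and 1 of GP2), where it was the lowest in 28.2% of all tested probe sets. The exception among the bright probe sets was the third of AMY2, in which 7-day-old replicate 4 was the highest of all 8 arrays. Both patterns were picked after these values were seen. The shares of all tested probe sets beside them are therefore descriptions and not a test.

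**Figure D3:**
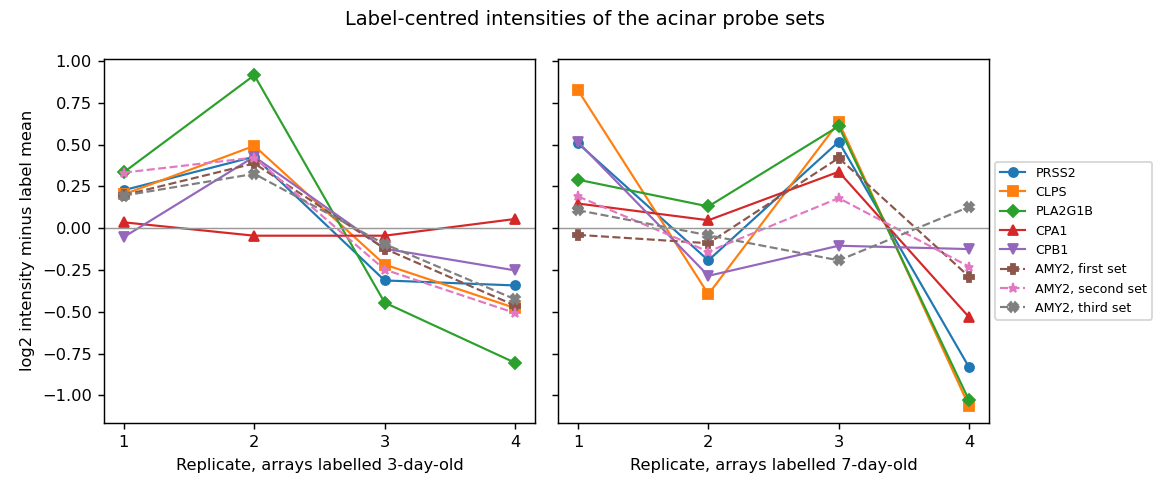
The log2 intensity minus the mean of the label (vertical axis) in each array (horizontal axis, replicates 1 to 4 of each label), for the 8 acinar probe sets other than those of GP2, with lines joining the values of 1 probe set and no order among replicates implied. In the left panel 7 of the 8 probe sets are highest in replicate 2 and lowest in replicate 4, and in the right panel PRSS2, CLPS and PLA2G1B are high in replicates 1 and 3 and low in replicate 4.

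Co-variation was planned with log2 intensities not centred as the main form and with values centred within each label as the second. The centred form is given first, because the labels lay apart in CPB1, PRSS2 and AMY2, with exact permutation of the arrays within labels. Over the 21 pairs of genes the label-centred r ran from -0.43 to 0.98, with a median of 0.55, and was positive in 18. After quantile normalization, a setting added later, the label-centred median was 0.41, with 18 pairs positive. With values not centred, the median was 0.33 and 15 pairs were positive, and without 7-day-old replicate 4 that median was 0.06. Without 3-day-old replicate 2 and 7-day-old replicate 4 it was 0.14, with 11 pairs positive. The only pair to pass when not centred was CPB1 and PRSS2 (r = 0.84, exact permutation, adjusted p = 0.0484). In both of these genes the labels lay apart.

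PRSS2 and CLPS, a protease and a lipase cofactor, were the closest pair (label-centred r = 0.98, exact permutation p = 0.00347, adjusted p = 0.0243 over 21 pairs). Only 2 of the 21573 other probe sets followed PRSS2 more closely than CLPS did. PRSS2 and PLA2G1B had r = 0.91 (exact permutation p = 0.00174, the smallest that permutation within labels allows, adjusted p = 0.0243), and CLPS and PLA2G1B had r = 0.86 (exact permutation p = 0.00347, adjusted p = 0.0243). By rank these pairs had a Spearman rho of 0.95, 0.88 and 0.81, with adjusted p of 0.0547, 0.0547 and 0.0972 by exact permutation, so the rank form did not pass. With values not centred, r was 0.41, 0.79 and 0.70 (exact permutation, adjusted p = 0.544, 0.216 and 0.291), and none passed. The label-centred relations did not rest on the 2 arrays farthest from the median of the first gene of each pair, since without them r was 0.96, 0.84 and 0.86. Leaving out any single array kept the label-centred r at 0.96 or above for PRSS2 and CLPS, at 0.85 or above for PRSS2 and PLA2G1B and at 0.73 or above for CLPS and PLA2G1B.

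CPA1 ran with the same 3 genes less firmly. Its label-centred r was 0.78 with PRSS2, 0.76 with CLPS and 0.63 with PLA2G1B (adjusted p = 0.276, 0.276 and 0.301 by exact permutation). Without 7-day-old replicates 3 and 4 these were 0.29, 0.31 and -0.08, so the relation rests on those arrays. CPA1 followed the hormone genes as closely, with label-centred r of 0.89 for GCG, 0.79 for INS, 0.66 for SST and 0.40 for PPY. After quantile normalization these were 0.74, 0.17, -0.60 and -0.36, against 0.83 with PRSS2, 0.81 with CLPS and 0.76 with PLA2G1B. The reason was not tested. CPB1, which carried the difference between labels, had a label-centred r of 0.63 with PRSS2 and 0.69 with CLPS (adjusted p = 0.332 and 0.276 by exact permutation).

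The answer for AMY2 depended on its probe set. The brightest, the third, had a label-centred r of 0.26 with PRSS2, 0.25 with CLPS, 0.46 with PLA2G1B and -0.35 with CPA1. Read by the first probe set, a choice made after the data were seen, AMY2 had 0.80 with PRSS2, 0.75 with CLPS, 0.91 with PLA2G1B and 0.47 with CPA1. GP2 had label-centred r between -0.43 and 0.62 with the other members, from values near the floor.

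**Figure D4:**
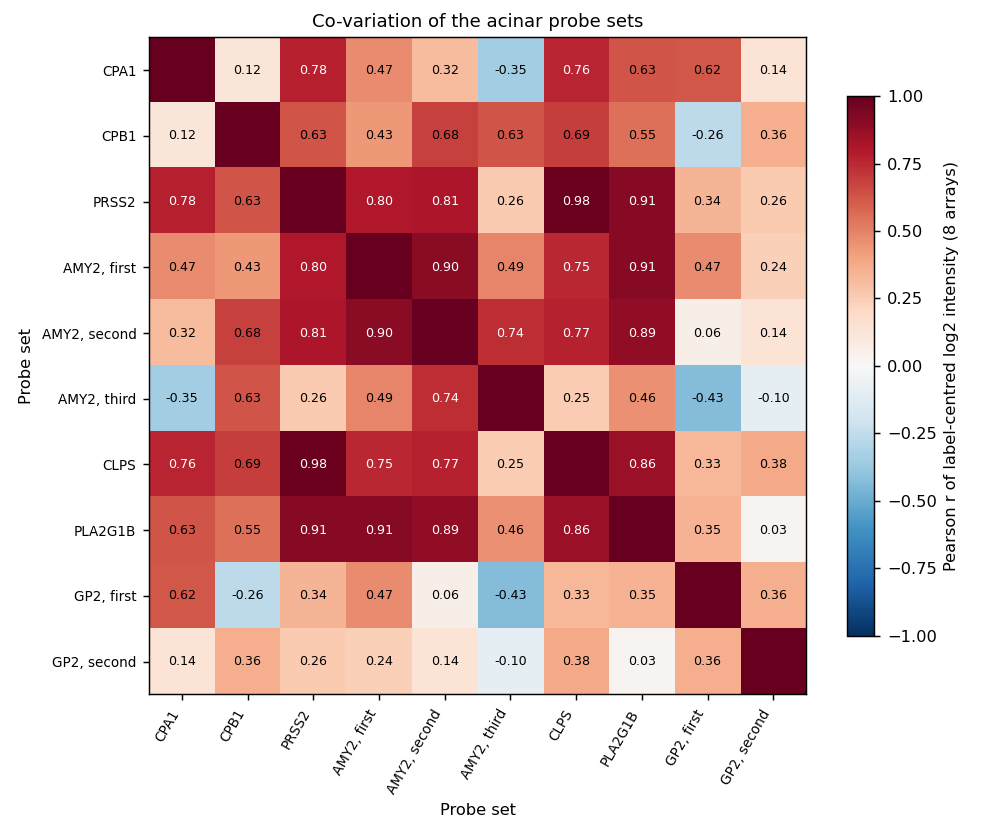
Pearson r of log2 intensities centred within each label over 8 arrays, for each pair of the 10 acinar probe sets (both axes), from blue at -1 to red at 1 with the value in each cell. PRSS2, CLPS, PLA2G1B and the first and second AMY2 probe sets form a block of values from 0.75 to 0.98, while the third AMY2 probe set and GP2 have at most 0.74 with any of them.

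PLA2G1B, CLPS and PRSS2 were among the most variable bright genes between pigs of the same label. The residual SD within labels was 0.747 log2 units for PLA2G1B, 0.699 for CLPS and 0.534 for PRSS2, against a median of 0.158 over the 10787 probe sets with a mean log2 intensity at or above the median of 7.81. Among those probe sets the 3 genes stood at the 99.7th, 99.5th and 98.7th percentiles of residual SD, with the AMY2 probe sets at 93.3, 94.4 and 83.8 and CPA1 at 86.2. This bright background was chosen after the data were seen. Among all tested probe sets, the planned background, whose dim members vary more, the percentiles were 85.9, 84.8 and 79.5 for PLA2G1B, CLPS and PRSS2. CPB1, below the median intensity, had a residual SD of 0.325, at the 63.3th percentile of all, and was thus not unusual in spread. These are descriptions with no test.

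**Figure D5:**
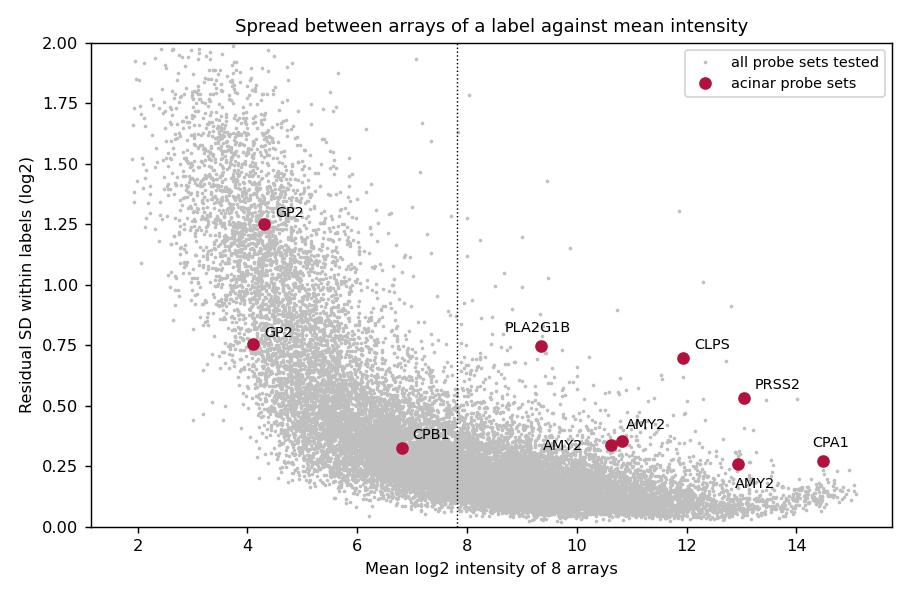
The residual SD within labels (vertical axis, log2 units) against the mean log2 intensity of 8 arrays (horizontal axis) for all tested probe sets in grey and the 10 acinar probe sets in red, with a dotted line at the median intensity; 44 probe sets above an SD of 2 are not shown. PLA2G1B, CLPS and PRSS2 lie well above the grey cloud at their intensity, and CPB1 lies within it.

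The members were also set against the second principal component, which held 7-day-old replicates 3 and 4 at its ends. Over the 8 arrays PRSS2 had r = -0.25 with its scores, CLPS -0.37 and PLA2G1B -0.24, with exact permutation p of 0.539, 0.382 and 0.569. Their rho was -0.31, -0.17 and -0.10, with exact permutation p of 0.462, 0.703 and 0.84, and r without the arrays farthest from the median score (3-day-old replicate 4, 7-day-old replicate 3) was -0.59, -0.34 and -0.53. CPA1 had r = -0.71 (exact permutation p = 0.107), rho = -0.60 (exact permutation p = 0.132) and r = -0.82 without those arrays. GP2 came closest, with r = -0.84 (exact permutation p = 0.0127, adjusted p = 0.0892 over 7 genes), rho = -0.81 (exact permutation p = 0.0218) and r = -0.87 without them. No member passed the adjusted test.

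Other genes of the acinar cell were few on the array and mostly dim. Of 27 other secretory genes, 7 were measured and 0 were called, where 12.2% of all genes were called with 1 probe set per gene, and their median log2 difference was -0.46. RNASE1, the pancreatic ribonuclease, had intensities of 391 to 660 in arrays labelled 3-day-old and 73.4 to 336 in arrays labelled 7-day-old (log2 difference -1.30, limma adjusted p = 0.113), with no overlap. CELA1, an elastase, had 71 to 136 and 120 to 235 (0.79, adjusted p = 0.0986), and CELA2A, another elastase, had 5.8 to 30.2 and 3.59 to 6.79 (-1.98, adjusted p = 0.0558), reaching the 20th percentile in 1 array. A dimmer second CELA1 probe set did not show the rise, with mean intensities of 45.6 and 43 (log2 difference -0.11, limma adjusted p = 0.87).

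The remaining secretory genes gave KLK1, tissue kallikrein, a log2 value of -0.46 (limma adjusted p = 0.3) and AQP8, a water channel, -0.59 (adjusted p = 0.105). PNLIPRP2, a lipase-related protein, stood at 0.38 (adjusted p = 0.598) and DPEP1, a dipeptidase, at 0.35 (adjusted p = 0.578). Within labels the 7 genes had r between -0.39 and 0.72 with the mean profile of the 5 bright members, highest for PNLIPRP2 and lowest for CELA2A. PNLIPRP2, at 23.6 to 95.5, and DPEP1, at 20.4 to 65.8, each reached the 20th percentile in only 7 arrays. The r of PNLIPRP2, DPEP1 and CELA2A thus rest in part on values near the floor.

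Of 10 acinar transcription factors and receptors for secretagogues, 3 were measured and 0 were called, where 12.2% of all genes were called. Their median log2 difference was -0.04. NR5A2, a nuclear receptor of acinar and other pancreatic cells, had intensities of 3815 to 4822 in arrays labelled 3-day-old and 2612 to 3567 in arrays labelled 7-day-old (log2 difference -0.44, limma adjusted p = 0.0802), with no overlap. Its dimmer probe sets had log2 differences of -0.39, -0.37, -0.58 and 0.09 (limma adjusted p = 0.0599, 0.176, 0.0874 and 0.908). GATA4 and GATA6, zinc finger factors of the developing pancreas, stood at 0.00 on average and -0.04 (adjusted p = 0.997 and 0.85). A dimmer second GATA4 probe set, not counted in the list, had mean intensities of 29.3 and 9.23, and it was called lower (log2 difference -1.68, limma adjusted p = 0.0454). These means lie near and below the arrays' 20th percentiles of 26.38 to 31.34, so the call rests on values near the floor.

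Of 12 genes for activation of zymogens and inhibition of proteases, 9 were measured, 2 were called lower, where 7.15% of all genes were, 0 higher and 7 not, with a median of -0.08. The called genes are not acinar enzymes. CST3, a widely expressed inhibitor of cysteine proteases, was lower (log2 difference -0.47, limma adjusted p = 0.0423), and SERPINB1, an inhibitor of neutrophil proteases, was too (-0.28, adjusted p = 0.0476). Both calls were lost in several settings, and the count in the list was 0 to 1 when 1 array was left out. CTSB, a lysosomal protease able to activate trypsinogen, was at -0.13 (adjusted p = 0.452), and SERPINA1, the main plasma inhibitor of elastase, was at 0.26 (adjusted p = 0.668).

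Some genes of other cell types were called between the labels beside CPB1, and 7.15% of all genes, with 1 probe set each, were called lower. Of 11 measured genes of duct epithelium, 3 were called lower and 0 higher (median log2 difference -0.32), with the keratin KRT19 at -0.83, the adhesion protein CDH1 at -0.54 and the mucin MUC1 at -0.61 (limma adjusted p = 0.0148, 0.02 and 0.0401). SPP1 and EPCAM, bright genes of the same list, were at -0.15 and -0.06. The summed intensity of the genes in this list was 85957 to 93789 in arrays labelled 3-day-old and 73001 to 80384 in arrays labelled 7-day-old. Its brightest genes weigh most in that sum, and CDH1 alone averaged 14702 and 10194, so the sum is not a measure of duct cells. The part of these genes in the difference of CPB1 was not tested.

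Of 10 measured genes of fibroblasts and stellate cells, 4 were called lower, where 7.15% of all genes were, and 0 higher (median -0.66). They were the proteoglycan DCN at -2.05, THY1 at -0.90, the growth factor receptor PDGFRB at -1.17 and the collagen COL1A2 at -0.71. The bright genes SPARC, VIM and FN1 were at -0.29, -0.44 and -0.61 and did not pass. Of 9 endothelial genes, 3 were called lower, where 7.15% of all genes were, and 0 higher (median -1.14). They were PECAM1 at -1.70, the receptor TIE1 at -3.41 and the cadherin CDH5 at -1.41. TIE1 reached the 20th percentile only in the 4 arrays labelled 3-day-old, with 50.4 to 70.3. In arrays labelled 7-day-old it had 2.74 to 9.67, so the size of its difference rests on values near the floor. EGFL7, a bright endothelial gene, was at 0.25 (limma adjusted p = 0.219). Of 7 leukocyte genes 0 were called (median -0.45), where 12.2% of all genes were called in either direction. KIT, CD163 and CD14, the brightest, stood at -0.18, -0.75 and -1.02, and PTPRC, the common leukocyte antigen, reached the 20th percentile in 1 array.

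Of 15 measured islet genes, 6 were called higher, where 5.03% of all genes were, 0 lower and 9 were not called (median 0.53), among them the transcription factor NEUROD1 at 1.39, SCG3 of the secretory granule at 1.05, the prohormone convertase PCSK2 at 1.11 and the granule protein CHGB at 0.70. The bright hormone genes SST, GCG and INS were at 0.08, -0.19 and -0.07 and did not pass. The summed intensity of the islet genes overlapped between the labels, at 147182 to 183275 and 171602 to 210760.

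The lists of other cell types had median correlations near or below 0 with the members' pattern from pig to pig. Against the mean label-centred profile of the 5 bright members (CPA1, PRSS2, AMY2, CLPS and PLA2G1B), which stood at 0.42 in 3-day-old replicate 2 and at -0.67 in replicate 4 of the other label, the median r over genes was -0.27 for duct epithelium, -0.20 for islet endocrine, 0.03 for fibroblast and stellate, -0.20 for endothelial and -0.05 for leukocyte genes. It was 0.48 for the 7 other secretory genes and 0.48 for the 3 acinar factors, of which NR5A2 had 0.59, GATA4 0.48 and GATA6 -0.57. Single genes departed from this, as SOX9, a transcription factor of duct cells named after its value was seen, had 0.79 and EPCAM, an epithelial adhesion protein, had -0.76. These are descriptions over 8 arrays with no p.

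Genes outside the lists whose label-centred intensity was most like that profile were LONP2, a peroxisomal protease (r = 0.979), the kinase STK24 (0.978), PFKP, a phosphofructokinase (0.970), LOC100524554 (0.962), SUPT3H (0.960), IFRD1 (0.958), the translation elongation factor EEF1D (0.958), UBXN6 (0.949), SRM, which makes spermidine (0.944), and AIMP1 (0.943). They were the highest of 5674 probe sets with 1 symbol at or above the median intensity. The likeness was one of shape and not of size. LONP2 ran only from 2560 to 3092 over the 8 arrays, a ratio of 1.21, whereas PRSS2 spanned a ratio of 4.79, and SRM came nearest in size with 313 to 1094, a ratio of 3.49. Over all tested probe sets 108 (0.501%) had r above 0.9 with the profile and 67 (0.311%) had r below -0.9.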

How the data were processed

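Islet RNA was hybridised to Affymetrix porcine GeneChips, 1 pig per array, after amplification with an extra round where yield was low (arrays not named). The authors deposited linear intensity values per probe set, scaled to a trimmed mean of 500.1 in each array; no source used here gives the summarisation software. Groups came from the deposited age labels. Nothing states that pigs of a label came from separate litters, so p-values measure the spread between these pigs.

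Values were floored at 1 and log2 transformed. Probe sets at or above the array's 20th percentile in no array, and 124 controls, were left out, leaving 21574. Labels were compared with limma 3.58.1 in R 4.3.3 (two-sided, Benjamini-Hochberg over all tested, threshold 0.05). Of 23999 probe sets other than controls, 10069 had 1 symbol, 198 several and 13732 none. Lists took the brightest probe set per gene. Correlations and within-array differences used exact permutations in Python 3.11.15 (numpy 2.4.6). The limma fit and the correlation code were tested on simulated data.

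The text names every member probe set, the measured genes of the other acinar secretory and factor lists, the 3 brightest and up to 4 called genes of each remaining list, and the 10 probe sets most like and 5 least like the members' mean profile. Members and lists were chosen with earlier results of these data known. Alternatives were other filters, scalings, offsets, variance models, array weights, the methods' t-test, a replicate block, other probe set summaries, and leaving out arrays.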

Additional observations from a re-analysis of the deposited data

How the results depend on the processing

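The log2 differences of CPB1, PRSS2, CLPS, PLA2G1B and the AMY2 probe sets kept their sign under every alternative in which they were tested. CPA1 and GP2, neither called under any alternative, did not. CPA1 ran from -0.26 to 0.04 when 1 array was left out, above 0 only without 7-day-old replicate 4. The first GP2 probe set ran from -0.63 without 7-day-old replicate 3 to 0.56 without 7-day-old replicate 4, was -0.14 without 3-day-old replicate 1, -0.06 with array quality weights and -0.31 without 7-day-old replicates 3 and 4, where the second was -0.20. The number of member probe sets called, 1 of 10 in the report, was 4 with the stricter filter (PRSS2 and all of AMY2, CPB1 not being tested), 4 with an intensity trend and robust variances, 3 with array quality weights, 2 with centred medians, 2 with an offset of 16, 0 without 7-day-old replicates 3 and 4, and 1 to 3 when 1 array was left out, with 3 without 3-day-old replicate 4 and 2 without 7-day-old replicate 3. Of all tested probe sets, 10.7% were called in the report, 27% with the stricter filter, 16.2% with the trend, 12.4% with weights, 10.5% with centred medians, 12.1% with the offset, 2.26% without 7-day-old replicates 3 and 4, and from 4.67% to 8.59% with single arrays left out. In the other lists 18 genes were called in the report, where 12.2% of all genes with 1 probe set each were called. That count became 30 with the trend, 7 without 7-day-old replicates 3 and 4 and 9 to 15 when 1 array was left out. It was 9 without 7-day-old replicate 1 or 2 and 10 without 3-day-old replicate 3. The methods' t-test called 1 member probe set after Benjamini-Hochberg adjustment, where it called 9.85% of all tested probe sets. For all of these changes the cause was not tested.

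The replicate numbers did not pair the pigs (correlations of -0.0135 to 0.00487 between arrays of a number). With the number as a replicate block CPB1 had an adjusted p of 0.0616 from limma, and 0 member probe sets, 0 genes of the other lists and 0 probe sets in all were called. The median pooled r of the members was 0.06 to 0.41 when 1 array was left out, lowest without 7-day-old replicate 4. Their median percentile of residual SD, 73.1 among all tested probe sets, was 66.4 without a filter and 94.4 among probe sets at or above the median intensity, a setting chosen after seeing the data.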

Other observations

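The probe sets whose label-centred intensity ran most against that of the 5 bright acinar members were KBTBD4 (r = -0.994), LOC100739098 (-0.982), LMAN2, a cargo receptor of the secretory pathway (-0.967), DONSON, a DNA replication factor (-0.964), and PARP8 (-0.945). Each of the 5 was highest in 7-day-old replicate 4, where most acinar members were lowest, and choosing them by their low r largely fixes this. KBTBD4 had an intensity of 734 there and of 575 to 665 in the other arrays, and DONSON had 532 there and 278 to 462 elsewhere. None of the 5 was called between the labels, with adjusted p of 0.0794 to 0.94 from limma.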
